A study of Saccharomyces cerevisiae with 4 samples.

Results

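Ribonucleotide reductase makes the deoxyribonucleotides that DNA synthesis consumes, and budding yeast (Saccharomyces cerevisiae) sets its amount and activity through a kinase cascade that responds to DNA damage and stalled replication. The sensor kinase Mec1 activates the effector kinase Rad53, which activates Dun1. Dun1 in turn relieves both a transcriptional repressor, Rfx1 (also called Crt1), and protein inhibitors of the enzyme. The 10 genes described here are the 4 reductase subunit genes (RNR1, RNR2, RNR3 and RNR4), the inhibitor genes SML1 and HUG1, and the control chain MEC1, RAD53, DUN1 and RFX1. They were taken by name, as the probe sets that the array platform's table pairs with 1 of these symbols, which gave 18 of 9335 probe sets. MEC1 had 9 of them and each of the other genes 1. Probe sets of a single gene covered 5656 genes in all. Of the 10 genes, 9 passed the filter on low signal and were tested among 4476 genes, and RAD53 did not.

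Messenger RNA was compared between a wild-type strain and a strain in which the histone H3 lysines at positions 4, 9, 14, 18, 23, 27, 36 and 79 were glycines, with 2 one-colour arrays in each group (n = 2). Both strains were grown in the rich glucose medium YPD to mid-log phase, at an optical density of 0.5 to 0.7, and biotin-labelled cRNA was made from about 20 µg of total RNA. No DNA-damaging agent is named for either group. The titles give the wild type as the reference for this mutant and for another H3 mutant not analysed here. Strain background, mating type and ploidy are not stated in the labels. Nor do they say that replicates came from separate cultures, so the spread behind each p-value may be technical. Values below are signals, an intensity on a linear scale. Fold changes are on log2(signal + 16), mutant minus wild type, which understates the change of dim genes, and adjusted p-values are from limma with Benjamini-Hochberg adjustment over all genes tested.

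The arrays had a nearly equal trimmed mean (125.1 on each), and the number of arrays limits the precision. Across tested genes, which are not independent replicates, log2 signals correlated at 0.991 and 0.989 within groups and at 0.942 to 0.949 between groups. The ratio of 3′ to 5′ actin probe sets, a measure of RNA integrity, was 1.51 to 1.56 in wild type and 1.49 to 1.59 in the mutant. The control probe sets for added bacterial transcripts were brighter on the mutant arrays, so the scaling matters here. For the hybridization controls the geometric mean was 138 and 141 on wild-type arrays against 174 and 201 on mutant arrays, and the Dap, Lys, Phe and Thr controls 994 and 1205 against 1236 and 1348. A 25S ribosomal RNA control probe set read 252 and 779.6 in wild type against 4143 and 4474 in the mutant. Transcripts that mark cell type also differed between the strains. All 5 a-cell markers (MFA1, MFA2, STE2, STE6 and BAR1) fell, with summed signals of 2204 to 2486 in wild type and 100.2 to 104.5 in the mutant, and so did all 5 haploid markers (FUS3, STE4, GPA1, HO and RME1), from 769 to 791 down to 113 to 128. Of 4 alpha-cell markers 1 was tested, SAG1, which rose from 47.5 and 38.6 to 115.8 and 106.7. MF(ALPHA)1, MF(ALPHA)2 and STE3 lay below the filter, with log2 fold changes of -0.06, 0.05 and -0.07 in a fit without it. The alpha-cell sums, 85.1 to 90.3 in wild type and 152 to 156 in the mutant, thus differed through SAG1. No marker was at 0 on any array. The part of these differences in the results below was not tested.

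In the mutant, 5 of the 9 tested genes of this pathway rose, 0 fell and 4 did not pass. The genes that rose were the reductase subunit genes RNR2, RNR3 and RNR4, the inhibitor gene HUG1 and the repressor gene RFX1. For RNR3 the direction was fixed by the filter, since its wild-type signals lay under the filter level, and 4 of the other 8 genes rose. Over all 4476 genes tested, 14.3% were called higher and 15.5% lower. The median log2 fold change of the 9 genes was 0.59, beside -0.03 over all genes tested. Both mutant arrays lay above both wild-type arrays for 8 of the 9, where this held for 31.1% of all genes tested. The 0.59 and the 8 of 9 include RNR3, whose direction the filter fixed, and were not read without it. For the 5 called genes both mutant arrays lay above both wild-type arrays, so leaving out 1 array could not change the sign. The median of the 9 was 0.54 to 0.64 in those fits. In the fit over all probe sets, most member calls were lost when 1 array was left out. The member genes had been chosen with results of these data known, so no p-value for the group is given.

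**Figure D1:**
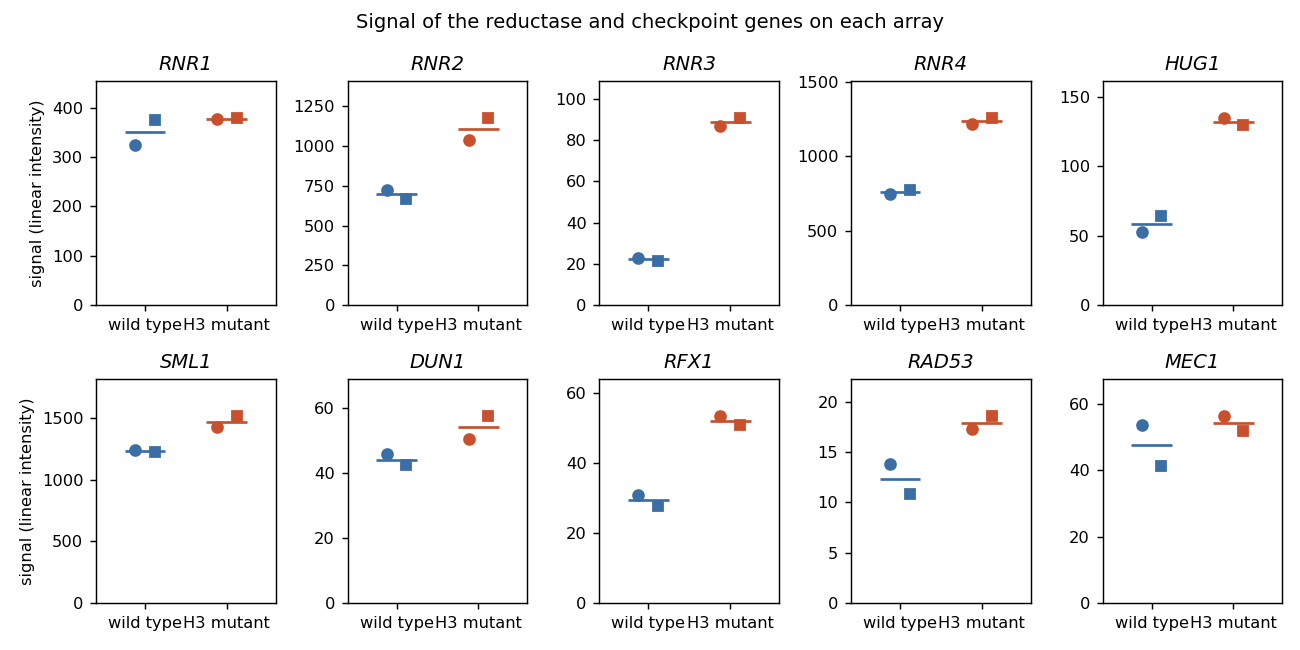
Signal on each array (linear intensity, axes from 0) for the 10 genes, with wild type in blue and the H3 mutant in red, circles for replicate 1, squares for replicate 2 and lines for group means. The RNR3 signals of 21.4 and 23.1 in wild type lie far below the 86.8 and 90.5 of the mutant, and MEC1, shown by its brightest probe set, is the gene whose groups overlap.

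The reductase is built from large subunits, which hold the catalytic site, and small subunits, which supply the radical that starts the reaction. RNR3, the minor large subunit gene, classically induced by DNA damage, read 23.1 and 21.4 on the wild-type arrays and 86.8 and 90.5 on the mutant arrays. Both mutant values were well above both wild-type values, and the mean signal was 3.98 times as high. The log2 fold change was 1.45 ± 0.106 (SE), with a limma adjusted p of 2.55e-05, and 99.3% of tested genes had a lower fold change. The wild-type signals lay just under the filter level of 25.1, so RNR3 was tested through its level in the mutant, and a gene so dim in wild type that passed had to be higher in the mutant. Its probe set is of a type whose probes can match other sequences, and cross-hybridization with RNR1 mRNA was not tested.

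RNR1, the major large subunit gene and a close relative of RNR3, gave 324.9 and 375.7 in wild type against 376.6 and 378 in the mutant. The mutant values stood just above the higher wild-type value. The log2 fold change of 0.11 had a 95% interval of -0.12 to 0.33 and did not pass (limma adjusted p = 0.445). A change of more than 0.33 upward lies outside that interval.

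The small subunit genes rose by similar amounts. RNR2, whose protein carries the iron and tyrosyl radical cofactor, gave 723.9 and 666.7 in wild type against 1038.5 and 1172.9 in the mutant, and the groups were well apart. Its mean signal was 1.59 times as high, and the log2 fold change was 0.66 ± 0.104 (SE, limma adjusted p = 0.00199). RNR4, whose protein pairs with Rnr2 and is needed for the cofactor to form, gave 745.3 and 773.7 in wild type against 1214.5 and 1254.1 in the mutant. Here the replicates lay closer together than those of RNR2, and the mean signal was 1.63 times as high. The log2 fold change was 0.69 ± 0.0944 (SE), with a limma adjusted p of 8.93e-04.

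Changes of ratios between these genes were also read within each array, where a common scaling factor nearly cancels. For 5 pairs the difference of log2 fold changes was set against its range over the 4 pairings of a mutant with a wild-type array. RNR3 gained 1.35 over RNR1 on the log2 scale (range 1.19 to 1.50). The filter fixed the direction of RNR3, so the sign of this gain is not read as a result. The small subunit genes gained less over RNR1, RNR2 by 0.55 (0.31 to 0.79) and RNR4 by 0.58 (0.49 to 0.68). Between RNR4 and RNR2 the difference was 0.03, with a range of -0.11 to 0.18 that spans 0. An exact two-sided permutation test over 4 arrays cannot go below p = 0.333. It gave 0.333 for the 4 pairs whose range excluded 0 (the fourth being HUG1 against SML1) and 0.667 for RNR4 against RNR2, so this test cannot pass its threshold here.

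**Figure D2:**
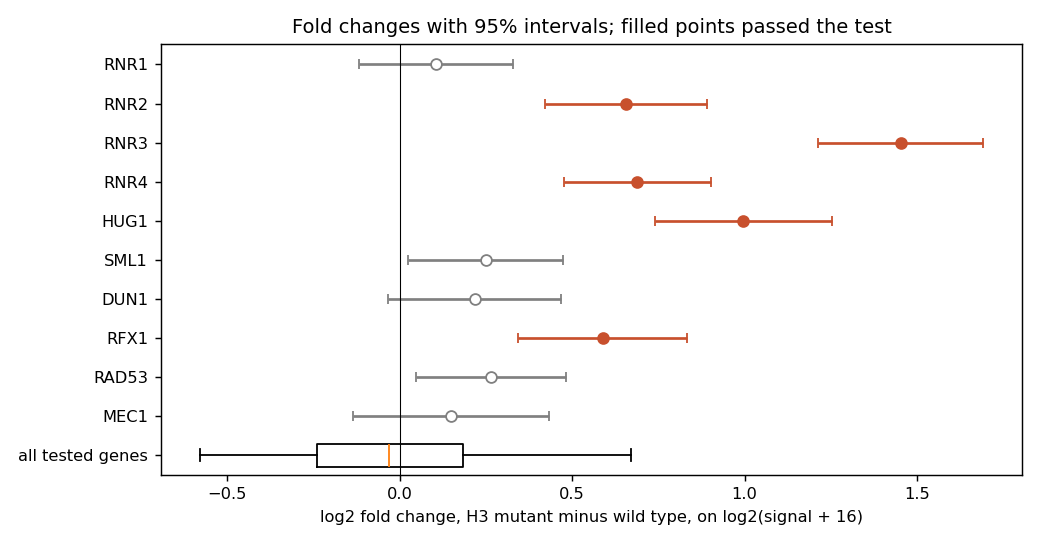
Log2 fold changes on log2(signal + 16) with 95% intervals (bars), filled red where the adjusted p was under 0.05, with all 4476 tested genes below as a box of the quartiles whose whiskers mark percentiles 5 and 95 (-0.58 and 0.67). RNR3 at 1.45, HUG1 at 1.00 and RNR4 at 0.69 lie beyond the upper whisker, RNR2 at 0.66 just inside it, and RAD53 is shown from the fit with no filter on signal.

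The inhibitor genes HUG1 and SML1 are direct neighbours on chromosome XIII in the reference gene table, and their values differed. HUG1, whose small protein is made after DNA damage and restrains the enzyme, gave 52.3 and 64.4 in wild type against 134.3 and 129.5 in the mutant. The mutant signals did not overlap those of wild type, and their mean was 2.26 times as high. The log2 fold change was 1.00 ± 0.114 (SE), with a limma adjusted p of 3.54e-04, higher than that of 97.9% of tested genes. SML1, whose protein binds Rnr1 and is destroyed when Dun1 is active, gave 1237 and 1227.7 in wild type against 1422.8 and 1514.9 in the mutant. Both mutant values were above both wild-type values, but by a factor of 1.19 in the means. Its log2 fold change of 0.25 ± 0.0996 (SE), with a 95% interval of 0.02 to 0.47, did not pass (limma adjusted p = 0.0871). Within arrays, HUG1 gained 0.75 over SML1 on the log2 scale, with a range of 0.56 to 0.94 over the 4 array pairings.

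RFX1, at the end of the control chain, encodes the DNA-binding repressor of RNR2, RNR3, RNR4, HUG1 and its own gene. It gave 30.9 and 27.6 in wild type against 53.3 and 50.7 in the mutant, a mean 1.78 times as high with no overlap. The log2 fold change was 0.59 ± 0.108 (SE), with a limma adjusted p of 0.00406.

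The kinase genes did not pass the test. DUN1 gave 45.7 and 42.4 in wild type against 50.4 and 57.4 in the mutant, without overlap. Its log2 fold change was 0.22, with a 95% interval of -0.03 to 0.47 (limma adjusted p = 0.169). RAD53 was dim, at 13.8 and 10.8 in wild type against 17.3 and 18.6 in the mutant, under the filter level of 25.1. In a fit with no filter on signal, over 5656 genes of which 14.8% were called higher and 13.1% lower, its log2 fold change was 0.26 ± 0.0953 (SE) with an adjusted p of 0.0704. These are transcript signals, and the activity of the kinases, which is set by phosphorylation, was not measured.

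For MEC1 the answer depended on which probe set was read. The brightest, used in the main test, gave 53.7 and 41.2 in wild type against 56.3 and 51.9 in the mutant. These groups overlapped, and the log2 fold change of 0.15 had a 95% interval of -0.13 to 0.43 (limma adjusted p = 0.395). The probe set of next highest mean log2 signal gave 36 and 39.4 in wild type against 50.6 and 60 in the mutant, with no overlap. Its log2 fold change was 0.41 ± 0.116 (SE). Read in place of the brightest one, a choice made after seeing the data, it passed with an adjusted p of 0.0279, which would make 6 of the 9 genes higher. In a fit over all 9335 probe sets, where 9.09% were called higher and 4.97% lower, it had an adjusted p of 0.0754. By number this probe set stands between those of CKS1 and YBR137W, the neighbours of MEC1 on the chromosome in the reference gene table. The other 8 are numbered together elsewhere on the list, most are of a type whose probes can match other sequences, and in all 8 the groups overlapped, with log2 values of -0.12 to 0.15.

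**Figure D3:**
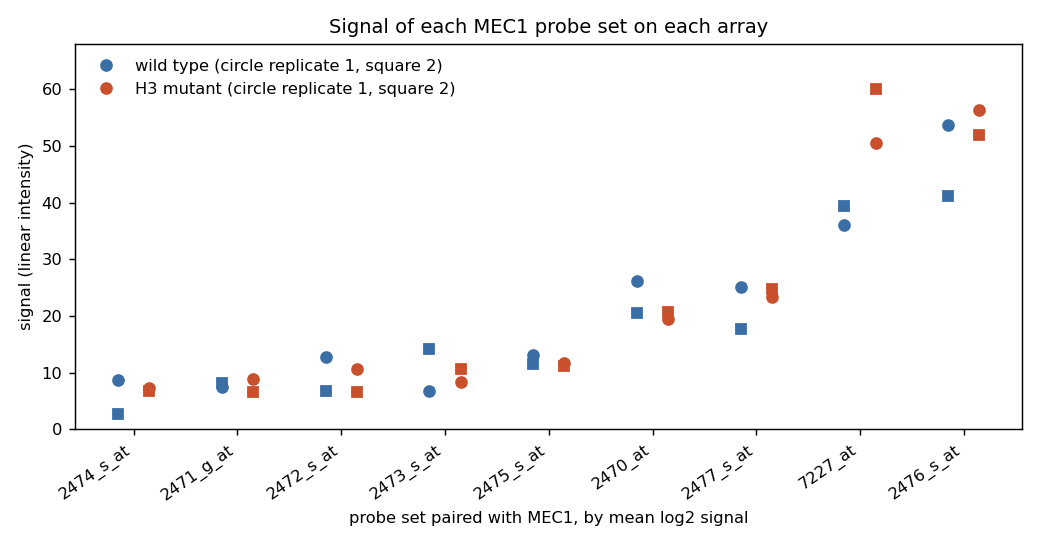
Signal on each array (linear intensity, axis from 0) for the 9 probe sets paired with MEC1, ordered by mean log2 signal, with wild type in blue, the H3 mutant in red, circles for replicate 1 and squares for replicate 2. In 1 probe set both mutant arrays (50.6 and 60) lie above both wild-type arrays (36 and 39.4), and in the other 8 the groups overlap.

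The scaling of the arrays set how many of these genes were called. When arrays were scaled to the hybridization controls, the median over all tested genes moved from -0.03 to -0.39, and 4.58% of genes were called higher and 55.6% lower. Under that scaling RNR3 and HUG1 were still higher, with log2 fold changes of 1.15 (limma adjusted p = 5.22e-11) and 0.64 (3.56e-04). The RNR3 interval was wider there (0.83 to 1.47) than in the main fit (1.21 to 1.69), although its adjusted p was smaller. Adjusted p-values under this scaling therefore do not compare in size with those of the main fit, and the smaller value is not read as stronger evidence. RNR2, RNR4 and RFX1 kept a positive sign at 0.24, 0.28 and 0.29 and no longer passed (adjusted p = 0.147, 0.0977 and 0.101), while RNR1, SML1, DUN1 and MEC1 turned negative (-0.30, -0.17, -0.10 and -0.17) without passing. Scaled to the Dap, Lys, Phe and Thr controls, an alternative added after the data were seen, the median over all genes was -0.23, and 4.02% of genes were called higher and 14.9% lower. RNR3, HUG1 and RNR4 then passed at 1.28, 0.80 and 0.46, and RNR2 and RFX1 did not (0.42 with an adjusted p of 0.0525 and 0.42 with 0.151). Here too the RNR3 interval was wider than in the main fit (0.85 to 1.70) and its adjusted p smaller, so the same limit holds. The distance of a gene from the median of all tested genes moved less, which is largely built in. Apart from quantile normalization, each scaling applied a single factor or shift to an array, which moves all genes nearly alike. These distances are therefore a description and no test of the calls. Over the 5 scalings drawn below, RNR3 lay 1.46 to 1.54 above the median of all tested genes and HUG1 1.03. The distance was 0.66 to 0.72 for RNR4, 0.63 to 0.69 for RNR2, 0.59 to 0.68 for RFX1 and 0.09 to 0.19 for RNR1.

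**Figure D4:**
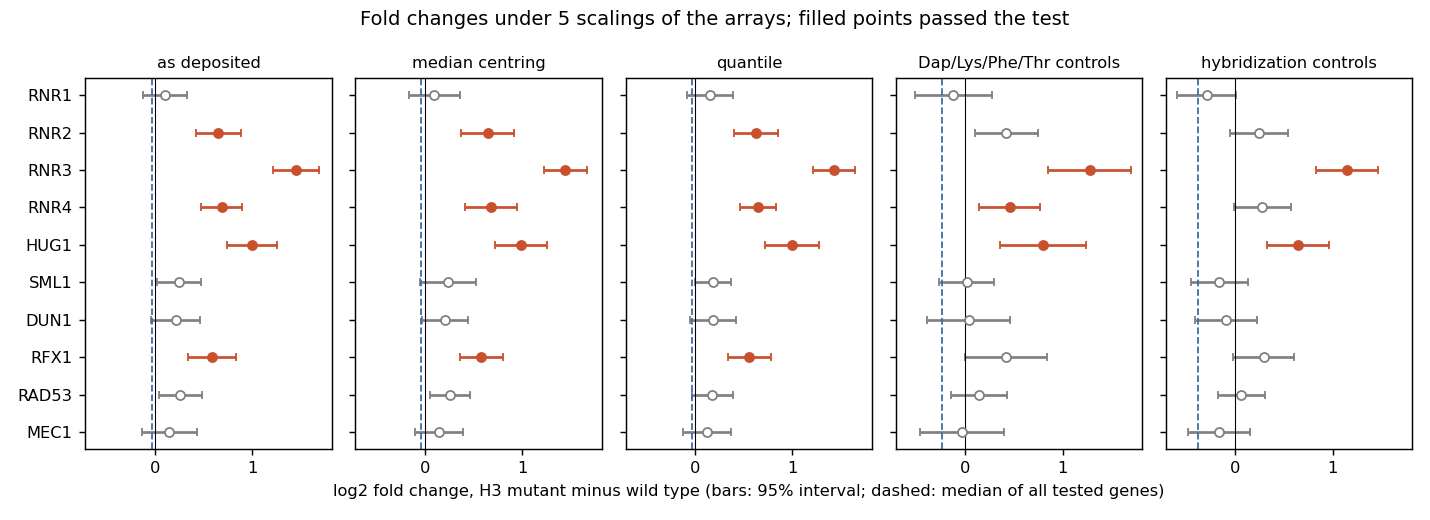
Log2 fold changes with 95% intervals (bars) under 5 scalings of the arrays, filled red where the adjusted p was under 0.05, with a dashed line at the median of all tested genes. With 3 scalings 5 genes passed, with the Dap, Lys, Phe and Thr controls 3 passed, and with the hybridization controls RNR3 and HUG1 passed.

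Other genes of the pathway were read from 5 lists chosen by known function, and most of their tested members did not pass. The counts below stand beside 14.3% of all tested genes higher and 15.5% lower, and several lie near those shares, so nothing is read from them about a list as a whole. They also rest on the scaling. Under the hybridization controls, where 55.6% of all genes were called lower, 7 of 12 checkpoint genes, 7 of 8 repressor and handling genes, 7 of 10 nucleotide supply genes, 3 of 8 damage-induced genes and 7 of 12 G1/S genes were lower. The checkpoint list held 18 genes, its sensors, mediators, kinases and phosphatases together with ASF1 and NRM1. Of these, 12 were bright enough to test, of which 1 rose, 1 fell and 10 did not pass, with a median log2 fold change of -0.11. TEL1, the kinase related to Mec1 that acts at DNA ends and telomeres, rose from signals of 56.9 and 51 to 109.4 and 117.7 (log2 fold change 0.89 ± 0.107 (SE), limma adjusted p = 4.60e-04). PTC2, a phosphatase gene whose product switches Rad53 off, fell from 324.2 and 339.4 to 189.8 and 214.5 (-0.67 ± 0.0967, adjusted p = 0.00113). Both calls held whichever array was left out and under both control scalings. The PPH3 phosphatase gene gave -0.69 with an adjusted p of 0.053, its mutant arrays differed by 0.87 on the log2 scale, and their mean signal of 23.8 lay under the filter level. LCD1, RAD9, MRC1, CSM3, RAD17 and DDC1 were below the filter.

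None of the 8 tested genes for repressors and for the handling of reductase subunits rose, 2 fell and 6 did not pass, with a median of -0.30. TUP1, whose product is the corepressor that Rfx1 brings to promoters together with Cyc8, fell from 289.9 and 302.2 to 202.9 and 242.3 (log2 fold change -0.39 ± 0.105 (SE), limma adjusted p = 0.0223). IXR1, a DNA-binding protein gene known to act on RNR1 and RNR3, fell from 237.8 and 205.2 to 179.5 and 165.1 (-0.33, adjusted p = 0.0396). The TUP1 and IXR1 calls each failed to hold in 3 of 4 leave-one-out fits (adjusted p up to 0.158 and 0.182). The partner gene CYC8 gave -0.30 with an adjusted p of 0.0591, and DIF1, which brings the small subunits into the nucleus, gave -0.30 with 0.0528.

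Among 10 tested genes that supply deoxyribonucleotides or reduce the enzyme, 0 rose, 3 fell and 7 did not pass, with a median of -0.13. DFR1, the dihydrofolate reductase gene, fell from 43 and 35.7 to 20.9 and 24.6, a log2 fold change of -0.51 (limma adjusted p = 0.012). Both mutant signals lay under the filter level of 25.1, so DFR1 passed the filter through wild type, which fixed its direction, and 2 of the other 9 genes fell. The deoxycytidylate deaminase gene DCD1 fell by 0.39 (adjusted p = 0.0206), and TRX1, a thioredoxin gene whose product reduces the reductase, fell by 0.38 (adjusted p = 0.016). Without 1 array the DFR1 call was lost in 2 of 4 fits, that of DCD1 in 3 and that of TRX1 in 4 (adjusted p up to 0.0799, 0.107 and 0.112). CDC21, the thymidylate synthase gene, gave 0.15 and did not pass.

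Damage-induced genes outside the reductase had no common direction. Of 14 listed 8 were tested, of which 2 rose, 1 fell and 5 did not pass, with a median of 0.10. UBI4, the stress-induced polyubiquitin gene, rose from 284.9 and 192.1 to 482 and 443.4 (log2 fold change 0.93 ± 0.155 (SE), limma adjusted p = 0.00243). RAD2, a nuclease gene of nucleotide excision repair, rose by 0.36 (adjusted p = 0.0335), and did not pass in any leave-one-out fit (adjusted p up to 0.192) or under either control scaling. RAD23, also of nucleotide excision repair, fell from 354.3 and 359 to 273 and 260.1 (-0.40, adjusted p = 0.01), a call lost without mutant replicate 2 (adjusted p = 0.0634). RAD54 and DIN7, a recombination gene and a damage-induced nuclease gene, gave 0.19 and 0.16 and did not pass, and MAG1, RAD16, PHR1 and PLM2 were below the filter.

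The list of the G1/S factors MBF and SBF and of genes they switch on, as MBF does RNR1, gave a median of 0.02. Of 12 tested 0 rose, 2 fell and 10 did not pass. The G1 cyclin genes CLN2 and CLN1 fell by 0.40 and 0.31 on the log2 scale (limma adjusted p = 0.0222 and 0.0447), and neither passed in any leave-one-out fit (adjusted p up to 0.146 and 0.175). POL1, POL30 and RFA1, genes of the replication fork, gave 0.03, 0.01 and 0.21.

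**Figure D5:**
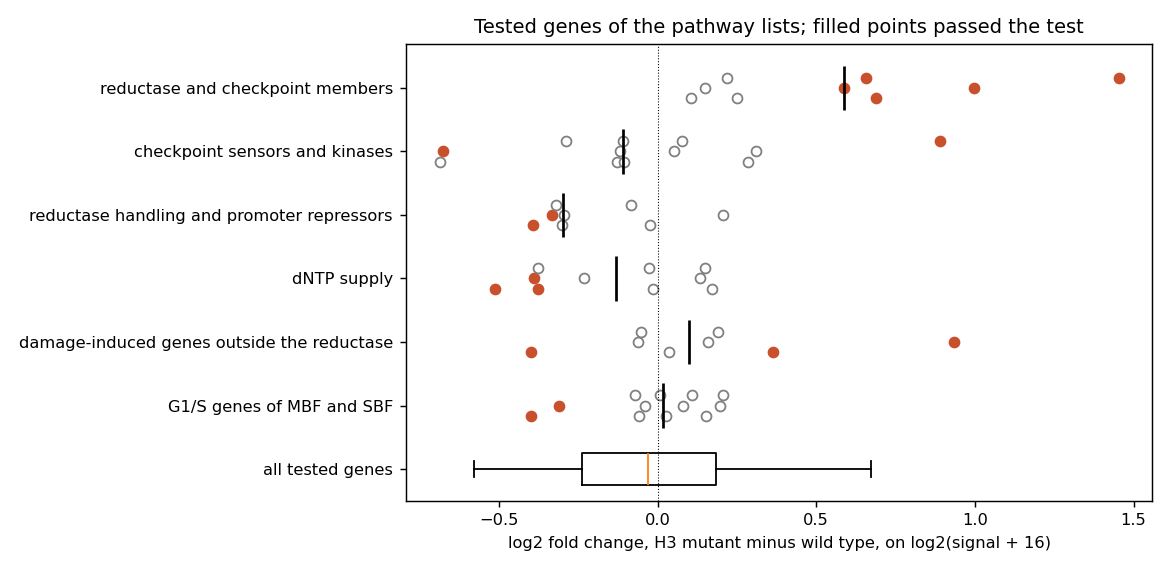
Log2 fold changes of the tested member genes and of 5 lists of related genes, filled red where the adjusted p was under 0.05, with a black line at each median and a box for all tested genes (quartiles, whiskers at percentiles 5 and 95). The member genes have a median of 0.59, which includes RNR3, whose direction the filter fixed. With no filter on signal the median of all 10 member genes was 0.43. The lists have medians of -0.30 to 0.10, with TEL1 (0.89) and UBI4 (0.93) as the list points above 0.5.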

How the data were processed

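The deposited values are one-colour oligonucleotide array intensities on a linear scale. The submitters' processing notes name MAS5, and its version, scaling target and the array's genome build were not found in the labels. The platform annotation gave 6504 of 9335 probe sets a single gene, 328 several genes and 2503 no gene. Symbols were updated by gene identifier through the current reference table. Coordinates in that table were used only to order genes along chromosomes, which gave the neighbours of member genes.

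Mutant and wild type were compared on log2(signal + 16), without further normalization, by limma 3.58.1 under R 4.3.3, using moderated statistics with an intensity trend (2 residual and 7.03 prior degrees of freedom) and a threshold of 0.05. Tested genes had a probe set of a single gene whose mean log2 signal reached percentile 25 (signal 25.1), with the brightest kept, which left 4476. Of these, 1908 had an unadjusted p under 0.05. All 10 member genes are named, and of each list up to 6 tested genes that passed, by adjusted p. Members, lists and tests were chosen with earlier results of these data known. List genes named without passing, and the second MEC1 probe set, were picked after values were seen. Alternatives changed the offset, scaling, filter, prior, probe set rule, threshold, replicate block and arrays. No sequences were used. Plots were made in matplotlib 3.10.9 (Python 3.11.15).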

Additional observations from a re-analysis of the deposited data

How the results depend on the processing

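Leaving out 1 array gave 390 to 481 genes higher and 314 to 458 lower over all genes tested, with 5 member genes higher and 0 lower each time and a member median of 0.54 to 0.64. The lone array of a group is then assumed to vary like the other group. An offset of 64 gave a member median of 0.32, and no filter gave 0.43. A filter at the median left 425 genes higher and 3 member genes higher, since RNR3 and RFX1 were then too dim to test. At a threshold of 0.01, 367 genes were higher and 273 lower, with 5 member genes higher. Scaling to the hybridization controls gave 205 genes higher and 2490 lower, 2 member genes higher and a member median of 0.24, and it turned RNR1 (-0.30), SML1 (-0.17), DUN1 (-0.10) and MEC1 (-0.17). Scaling to the Dap, Lys, Phe and Thr controls, added after the data were seen, gave 180 genes and 3 member genes higher, a member median of 0.42, and RNR1 at -0.12 and MEC1 at -0.034. The cause of the brighter controls was not tested. The calls were 48.0% higher as deposited, 7.61% under the hybridization controls and 21.2% under the other controls.

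The replicate numbers are not stated to pair arrays, and deviations of the first replicates from their group means correlated at 0.13. With the replicate number as a block, 800 genes were higher and 966 lower, and 6 member genes, SML1 passing as well (adjusted p = 0.0421). RAD53 passed in the blocked fit with no filter (adjusted p = 0.0384). The block leaves fewer residual degrees of freedom than the 2 of the main fit, so the test leans more on the prior. With an unchanged log2 fold change of 1.45, RNR3 had a limma adjusted p of 6.18e-31 there. Passes in the blocked fit therefore do not compare with those of the main fit. In the fit over all probe sets, 5 of 18 member probe sets were called higher, where 9.09% of all probe sets were called higher and 4.97% lower. Most of these member calls were lost whichever array was left out. The share over all probe sets was not read for those fits. Among probe sets numbered from 5600 to below 6700, 18 of 650 tested genes had mutant arrays over 1 apart on the log2 scale, against 1 of 3826 elsewhere. RNR1, DUN1, PTC2, PPH3 and RAD23 lie there, and for RNR1 and DUN1 the mutant arrays differed by 0.01 and 0.14. Leaving out that stretch also took RNR1 and DUN1 out of the test, and 5 of the remaining member genes were higher. The lists lost the PTC2 and RAD23 calls because their probe sets were left out. Then 4 repressor and handling genes (2 with the stretch) and 4 nucleotide supply genes (3 with it) were lower. Promoter motifs, with their window lengths, were planned and not run, as promoter sequence was not used here.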

Other observations

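Genes that lie next to the member genes in the reference gene table were read as well, a choice made after the data were seen. Of 14 tested neighbours that are not members, 3 were called higher and 1 lower, with a median log2 fold change of 0.08, beside 14.3% higher and 15.5% lower over all genes tested, so the neighbours as a group are near that background. The gene next to RFX1, YLR177W, rose from signals of 71.5 and 66.7 to 113.8 and 118.8 (0.64, limma adjusted p = 0.00203), and CBF5 on its other side gave -0.18 (adjusted p = 0.259). FIS1, a mitochondrial fission gene beside RNR3, rose from 117 and 149.9 to 187.4 and 185.5 (0.45, adjusted p = 0.0212), and YIL067C on its other side gave 0.19 and did not pass. PEP4, a vacuolar protease gene beside RAD53, rose from 923.3 and 1180.2 to 1657.8 and 1731 (0.69, adjusted p = 0.0043). YBR137W, beside MEC1, fell from 95.7 and 87.9 to 44.9 and 48.8 (-0.78, adjusted p = 9.28e-04), while CKS1 on the other side gave 0.09. The neighbours of RNR2 did not pass, with 0.32 for YJL027C (adjusted p = 0.0591) and -0.04 for RRN7. NTE1 and CMP2, which flank the HUG1 and SML1 pair, gave 0.17 and -0.16 and did not pass.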
